A study of Homo sapiens with 6 samples.

Results

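Double-stranded RNA-binding proteins recognise the A-form helix of base-paired RNA, mostly through a small fold repeated along the protein, and show little preference for sequence. The Staufen proteins use it to bind mRNA hairpins in transport, translation and mRNA decay. ADAR enzymes convert adenosine to inosine in the same kind of helix, the kinase PKR halts translation when it meets long double-stranded RNA, and TRBP and PACT assist Dicer in microRNA maturation. The genes described here are 9 such factors: the Staufen paralogs STAU1 and STAU2, the editing enzyme genes ADAR and ADARB1, the PKR gene EIF2AK2, the nuclear factor gene ILF2, the RNA helicase gene DHX9, and PRKRA and TARBP2, which encode PACT and TRBP. They were taken by symbol from the deposited count table, 9 of 30493 listed genes, and no symbol was repeated. All 9 were among the 17089 genes with enough counts to be tested. ILF2 stands apart in this set, since it lacks the double-stranded RNA-binding fold and works through a protein complex.

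The libraries came from A549, an established human lung adenocarcinoma cell line that stems from a single tumour. There were 3 controls, whose genotype is given as control plasmid and whose names start with NC, and 3 libraries with STAU1 knocked down, whose names start with si. No other treatment or allele is given for either group, and neither the time after knockdown nor the sequence of the reagent is given in the sources used here. Separate cultures are not mentioned for the replicates, and the p-values therefore describe only how far these 6 libraries scatter, which may be technical scatter. The comparison asks how transcript levels differ when STAU1 is depleted. Whether both groups received the same kind of reagent is not stated. An effect of the reagent and an effect of STAU1 depletion therefore cannot be told apart.

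Total counts ran from 30354219 to 35431441 per library. Mitochondrial transcripts took 17.3% to 17.9% of counts in controls and 15.8% to 16.1% in knockdown libraries. Of 11 epithelial and A549 markers, all 11 were tested and their summed level was 30430 to 31060 CPM, counts scaled to each library's total, in controls and 28420 to 28610 in knockdown libraries. They did not move together: in the edgeR fit described below 4 were called higher, 6 were called lower and 1 was not called. CDH1, EPCAM, CPS1 and ALDH1A1 were higher, while KRT7, KRT18 and KRT8 were among the lower. The 10 alveolar type II markers summed to 34.8 to 38.6 CPM in controls and 23.1 to 25.5 in knockdown libraries. Of the 7 tested, 4 were called lower and 3 were not called. SFTPA1 had 162, 141 and 212 counts in controls, SFTPB had 103, 56 and 50, and both were at 0 in every knockdown library. SFTPA2 and SLC34A2 were also called lower, while ABCA3, SFTPD and NAPSA were not called. Of 15 markers of fibroblasts, endothelium, immune and red blood cells, 11 had a row, and these summed to 20.5 to 21.1 CPM in controls and 29.8 to 30.5 in knockdown libraries. Among the 6 of them that were tested, LUM, CD14 and CDH5 were called higher, while COL3A1, PECAM1 and CD68 were not called. HBA1 had 1, 0 and 1 counts in controls and 0 in every knockdown library, and the vascular gene VWF had 0 to 3 counts per library. The part of these shifts in the results below was not tested. In bulk RNA, fewer cells that express a gene and less RNA per cell cannot be told apart.

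Transcript levels of the 9 genes covered a wide range, from ILF2 to ADARB1. In controls the order by FPKM, the deposited level per length of gene, was ILF2 at 91.0 ± 1.55, DHX9 at 28.97 ± 0.335, STAU1 at 24.1 ± 0.616, ADAR at 10.01 ± 0.171, EIF2AK2 at 5.94 ± 0.129, TARBP2 at 5.70 ± 0.121, PRKRA at 3.40 ± 0.0651, STAU2 at 3.21 ± 0.0351 and ADARB1 at 0.197 ± 0.0208 (SD, n = 3). No neighbours in this order overlapped among the controls. In knockdown libraries STAU1 moved from rank 3 to rank 8, at 3.32 ± 0.0889 FPKM, and TARBP2 (6.14 ± 0.194) overlapped EIF2AK2 (5.94 ± 0.111). The place of PRKRA depended on the gene length used. Its FPKM implied a length of 11534 bases if that of DHX9 is taken from the annotation, whereas the summed exons of PRKRA in GENCODE 29 came to 3941 bases. The other members were nearer to their models, the widest gap being 11720 against 9691 bases for ADAR. Per kilobase of these summed exons, PRKRA stood at 12.7 CPM in controls and came before EIF2AK2 (7.47) and TARBP2 (6.98).

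**Figure D1:**
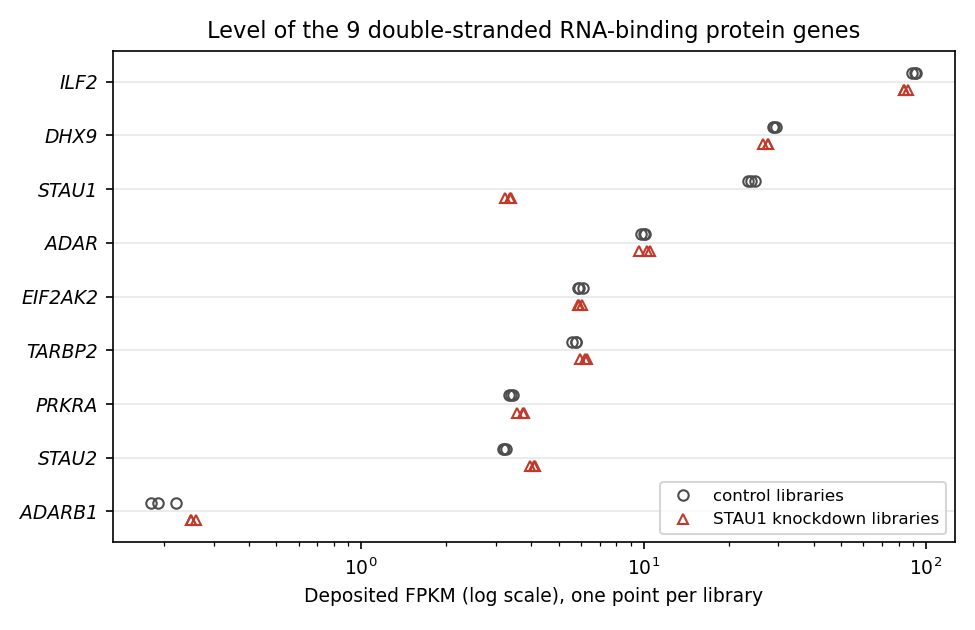
Deposited FPKM of the 9 genes on a log axis, with a circle for each of 3 control libraries and a triangle for each of 3 STAU1 knockdown libraries. STAU1 drops from 24.1 to 3.32 FPKM on average, and STAU2 goes from 3.21 to 4.06 FPKM.

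Across the fit over all genes, 6 of the 9 were called at an adjusted p under 0.05 (quasi-likelihood test of edgeR, Benjamini-Hochberg), where 44.2% of all tested genes were called. STAU2 was higher, and STAU1, ILF2, DHX9, EIF2AK2 and ADAR were lower. STAU1 is the targeted gene, so its fall checks the labels. Of the 8 others, 5 were called. For comparison, 22.2% of all tested genes were called higher and 22% lower. The groups did not overlap in TMM-scaled CPM, the scale used for single genes from here on, for 7 of the 9, against 51.4% of all tested genes. The median log2 fold change, knockdown minus control, was -0.09 over the 9 and -0.00036 over all tested genes. The median over the 9 was -0.01 with total-count scaling and 0.02 on the log2(FPKM + 0.1) scale. TMM scaling, the trimmed mean of M-values, sets the bulk of genes to no change, whereas total-count scaling uses the sum of all reads. The number called lower was 5 with TMM scaling and 3 with total-count scaling or on the FPKM scale, where ADAR and EIF2AK2 were no longer called. Total-count scaling moved the median of all tested genes to 0.08 and log2(FPKM + 0.1) moved it to 0.10. The share of all calls that were higher was then 69.5% and 77.2%, against 50.3% with TMM.

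**Figure D2:**
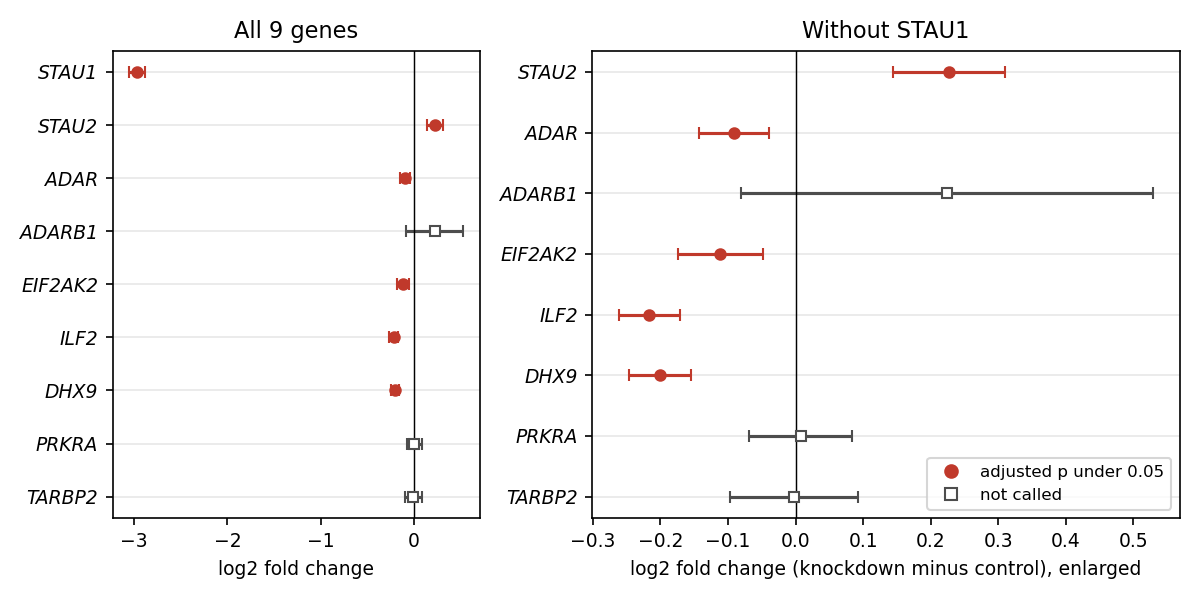
Log2 fold change of each gene, knockdown minus control, with its 95% interval from the fit over all genes, for all 9 genes (left) and enlarged without STAU1 (right). Filled circles passed an adjusted p of 0.05 and open squares did not, and apart from STAU1 every estimate lies between -0.22 and 0.23.

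The Staufen paralogs moved in opposite directions and by unequal amounts. STAU1 (ENSG00000124214, chromosome 20, 49113339 to 49188367, minus strand; all positions are from GENCODE 29 on GRCh38) was covered by 3738, 3810 and 3730 reads in the controls, in the order of their numbers, and by 501, 500 and 528 in the knockdown libraries. Every knockdown library lay far under every control. Scaled by TMM, STAU1 fell 7.83-fold (log2 fold change -2.97, SE 0.04), the fifth largest change in size among all tested genes, where 0.533% of genes were called and at least 2-fold lower. The FPKM of each knockdown library was 14.1%, 13.9% and 13.4% of the control mean, so the 3 libraries were depleted to nearly the same degree.

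STAU2 (ENSG00000040341, chromosome 8, 73420369 to 73747708, minus strand), whose protein is known best from neuronal mRNA transport, had 35.3, 35.9 and 34.8 CPM in controls and 42.4, 40.6 and 41.1 CPM in knockdown libraries. The groups did not overlap. It rose by a log2 fold change of 0.23 (95% interval 0.14 to 0.31), and in size this change exceeded that of 60.7% of tested genes. The call was kept in every alternative, with a log2 fold change of 0.30 under total-count scaling and 0.33 on the log2(FPKM + 0.1) scale. No 100-base window of STAU1 transcripts was found in transcripts of another gene, STAU2 included. Of the STAU2 windows 1.92% were shared with AC022826.2, a gene annotated on the same strand that overlaps 302 bases of STAU2 exons and held 317 counts over all 6 libraries.

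In FPKM the 2 transcripts together went from 27.3 ± 0.651 in controls to 7.38 ± 0.0945 in knockdown libraries (SD, n = 3), which is 27.1% of the control sum. STAU1 lost 20.7 FPKM and STAU2 gained 0.85, or 4.10% of that loss. In TMM-scaled CPM per kilobase of summed exons, STAU1 went from 29.5 to 3.77 and STAU2 from 3.925 to 4.595. The relative rise of STAU2 was smaller on that scale than in FPKM. The share of STAU2 in the sum was 11.8%, 11.6% and 11.9% in the controls and 54.7%, 54.2% and 56.2% in the knockdown libraries. STAU2 was thus the less abundant paralog in every control and the more abundant in every knockdown library. The STAU2 to STAU1 ratio was 0.134 ± 0.00196 and 1.22 ± 0.0520 (exact two-sided permutation test, p = 0.1, adjusted p = 0.133 over the 4 ratios tested). With 3 libraries against 3, 0.1 is the smallest p this test can give.

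**Figure D3:**
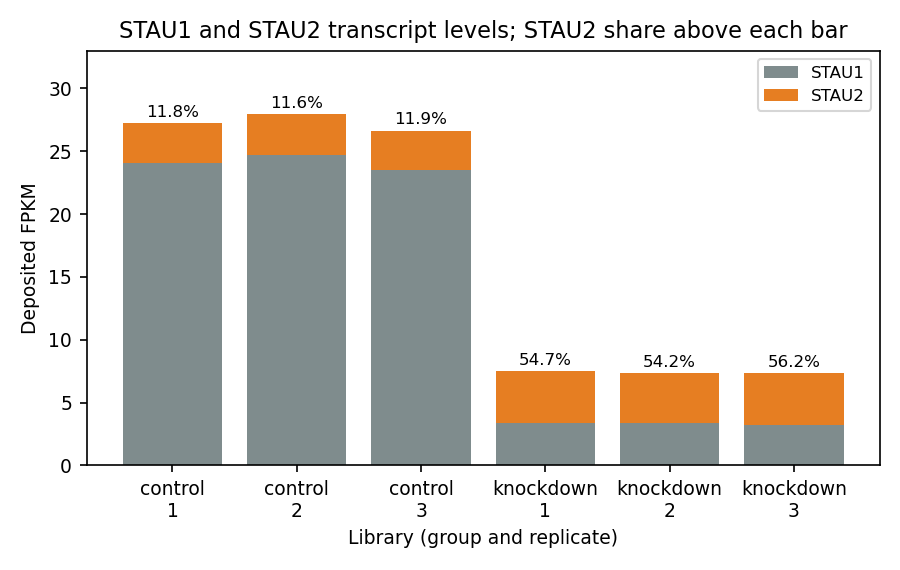
Deposited FPKM of STAU1 (grey) and STAU2 (orange) stacked for each of the 6 libraries, with the STAU2 share of the sum printed above each bar. The sum falls from 27.3 to 7.38 FPKM on average and the STAU2 share goes from about 11.8% to between 54.2% and 56.2%.

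The next genes act in the nucleus in splicing, transcription and the processing of structured RNA. ILF2 (ENSG00000143621, chromosome 1, 153661788 to 153671048, minus strand) encodes NF45, a protein with a DZF domain. It had 256, 249 and 251 CPM in controls and 218, 216 and 217 CPM in knockdown libraries, with no overlap. ILF2 fell by 0.22 on the log2 scale (SE 0.02, adjusted p = 1.9e-11 by edgeR), and by 0.14 under total-count scaling and 0.11 on the log2(FPKM + 0.1) scale, where it was still called. SNAPIN, on the opposite strand, overlaps 43 bases of ILF2 exons and held 9392 counts over all libraries.

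DHX9 (ENSG00000135829, chromosome 1, 182839369 to 182887751, plus strand) encodes RNA helicase A, which unwinds double-stranded RNA, inverted Alu repeats among it. It had 207, 210.3 and 211 CPM in controls and 181, 185 and 181 CPM in knockdown libraries. All controls lay above all knockdown libraries. DHX9 fell by 0.20 on the log2 scale (SE 0.02, adjusted p = 3.7e-10 by edgeR), and by 0.12 under total-count scaling and 0.09 on the log2(FPKM + 0.1) scale. ILF2 and DHX9 were the most abundant of the 9 in every library, and their replicates were tight. The coefficient of variation was 1.46% and 0.995% in controls, against a median of 4.98% over all tested genes. That median includes genes with few counts. Every member but ADARB1 (9.35%) lay under it in controls, ADAR at 1.37%.

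The editing enzyme genes differed in level by a wide margin. ADAR (ENSG00000160710, chromosome 1, 154582057 to 154628013, minus strand) encodes ADAR1, the main editing enzyme of Alu-derived helices. It had 152, 148 and 150.1 CPM in controls and 136, 143 and 143 CPM in knockdown libraries. The groups did not overlap, though knockdown replicate 1 lay under the other two. ADAR fell by 0.09 on the log2 scale (95% interval -0.14 to -0.04, adjusted p = 0.0030 by edgeR). That call ended without knockdown replicate 1 (-0.06, adjusted p = 0.0722) and under total-count scaling (-0.01, adjusted p = 0.687), and the sign turned on the log2(FPKM + 0.1) scale (0.02, adjusted p = 0.758). Reads were counted per gene, so the interferon-inducible p150 form and the constitutive p110 form cannot be told apart.

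ADARB1 (ENSG00000197381, chromosome 21, 45073853 to 45226560, plus strand) encodes ADAR2, the enzyme known for recoding sites in neuronal transcripts. It had only 74, 69 and 86 counts in controls and 90, 95 and 99 in knockdown libraries. Scaled by TMM these were 2.39, 2.25 and 2.70 CPM against 2.88, 2.98 and 2.74 CPM, without overlap but with knockdown replicate 3 close to control replicate 3. The log2 fold change of 0.22 was nearly that of STAU2 in size, but its 95% interval ran from -0.08 to 0.53 and it was not called (adjusted p = 0.239 by edgeR). The ADARB1 to ADAR ratio of FPKM was 0.0196 ± 0.00194 in controls and 0.0250 ± 0.00117 in knockdown libraries (SD, n = 3; exact permutation test, p = 0.1, the smallest possible, adjusted p = 0.133). FPKM is deposited to 2 decimals, which is coarse for ADARB1, with 0.18 to 0.26 in the 6 libraries.

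EIF2AK2 (ENSG00000055332, chromosome 2, 37099210 to 37157065, minus strand) encodes PKR, which phosphorylates the translation factor eIF2 after binding double-stranded RNA and is itself induced by interferon. It had 79.1, 82.7 and 79.2 CPM in controls and 74.3, 74.7 and 74.1 CPM in knockdown libraries. The knockdown libraries were almost equal and all lay under the controls. EIF2AK2 fell by 0.11 on the log2 scale (95% interval -0.17 to -0.05, adjusted p = 0.0030 by edgeR). The call ended under total-count scaling (-0.03, adjusted p = 0.397) and on the log2(FPKM + 0.1) scale (-0.00074, adjusted p = 0.991), where both groups averaged 5.94 FPKM. The pseudogene AC007899.1, annotated on the opposite strand across 401 bases of EIF2AK2 exons, holds 2.73% of the 100-base windows of EIF2AK2 transcripts. A small part of the EIF2AK2 reads may thus be shared, but AC007899.1 is not among the listed genes. GPATCH11, also on the opposite strand, overlaps 35 bases of EIF2AK2 exons and held 2146 counts over all libraries.

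**Figure D4:**
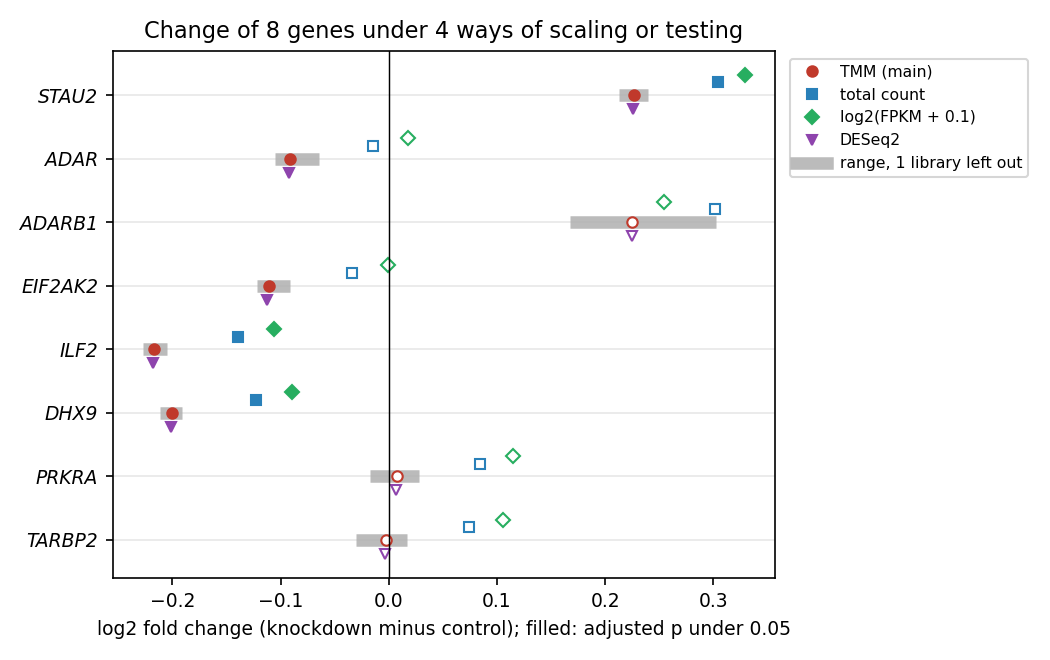
Log2 fold change of the 8 genes other than STAU1 with TMM scaling, total-count scaling, the deposited FPKM and DESeq2 (filled where the adjusted p was under 0.05), with a grey bar for the range when 1 library is left out. STAU2 stays above 0 and ILF2 and DHX9 below 0 and filled throughout, while ADAR and EIF2AK2 move to near 0 with total counts or FPKM.

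Of the promoter windows in the RefSeq table (GRCh38.p14, 250 bases before to 50 after each start), 8 of the 9 genes had at least 1. The interferon response element was searched as GAAA, any 2 bases and GAAA, on both strands and with overlapping matches included, because EIF2AK2 and ADAR are classed as interferon-induced. EIF2AK2 was the only one of the 8 with a match, while 4.38% of all 27305 genes and 17 of the 22 interferon-stimulated genes with a window had one. The matches below show the element of EIF2AK2 beside those of 2 interferon-stimulated genes that were called in opposite directions, with the motif in capitals and each read 5′ to 3′ on the strand named.
EIF2AK2, chr2:37156968-37156995, minus strand: gtccaagggGAAAACGAAActgagaacc
OAS3, chr12:112938453-112938480, plus strand: gccgggcggGAAAACGAAAccagaaatc
IFIT1, chr10:89392511-89392538, minus strand: aaacctaggGAAACCGAAAggggaaagt
EIF2AK2 and OAS3 share the same 10 letters, which 0.0655% of all windows hold. In EIF2AK2 the motif runs from -6 to 3 relative to the RefSeq start, and so crosses that start. In OAS3 the motif begins 12 bases before the RefSeq start. The GENCODE span of EIF2AK2 starts at 37157065 on the minus strand, so the EIF2AK2 match shown lies inside that span. OAS3 and IFIT1 also hold a second match each in their windows, which in IFIT1 lies next to the one shown. The absence of these letters in the ADAR windows says nothing of elements elsewhere.

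Among 28 interferon-stimulated genes, 23 were tested. Of these 1 rose and 4 fell, while 18 did not pass. Their median was -0.08 on the log2 scale (0.0013 under total-count scaling), beside -0.00036 for all tested genes. IFIT1, which binds foreign 5′ ends, rose from 9.50 to 12.7 CPM (0.42, SE 0.08). OAS3, a sensor that makes 2′-5′ oligoadenylate, fell from 45.7 to 40.1 CPM. The OAS3 call was lost on the log2(FPKM + 0.1) scale (adjusted p = 0.363 by limma).

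PRKRA and TARBP2, the pair of Dicer partners, did not pass the test. PRKRA (ENSG00000180228, chromosome 2, 178431414 to 178451512, minus strand) encodes PACT, which also activates PKR. It had 49.2, 51.4 and 49.9 CPM in controls and 52.4, 48.9 and 49.95 CPM in knockdown libraries, with full overlap. Its log2 fold change was 0.0075 with a 95% interval of -0.07 to 0.08. TARBP2 (ENSG00000139546, chromosome 12, 53500921 to 53506431, plus strand) encodes TRBP, which binds Dicer and inhibits PKR. It had 27.8, 29.1 and 28.8 CPM in controls and 29.8, 27.7 and 28.1 CPM in knockdown libraries, also overlapping, with a log2 fold change of -0.0026 (95% interval -0.10 to 0.09). Neither was called under any alternative, but the estimates rose to 0.08 and 0.07 under total-count scaling and to 0.11 each on the log2(FPKM + 0.1) scale. The FPKM ratio of PRKRA to TARBP2 was 0.599, 0.600 and 0.589 in controls and 0.597, 0.599 and 0.604 in knockdown libraries (exact permutation test, p = 0.6). The 2 groups of ratios overlapped. The level of this ratio rests on the PRKRA length used: per kilobase of summed exons it was 1.82 in controls and 1.83 in knockdown libraries. PRKRA exons overlap those of PJVK and AC009948.1 on the opposite strand, by 132 and 85 bases, and whether the counting used strand was not stated in these sources.

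Genes that act with the 9 were called in both directions with TMM scaling, but only higher in 3 of the 6 lists on the log2(FPKM + 0.1) scale. Among 12 tested proteins with the same fold or with the DZF domain of ILF2, 1 gene rose, 4 fell and 7 did not pass (median log2 fold change -0.03, but 0.05 under total-count scaling). The microRNA processing nuclease gene DROSHA rose from 42.3 to 49.1 CPM (0.21, SE 0.04), while its partner gene DGCR8 changed by -0.18 (SE 0.05) and was called lower, but neither with total-count scaling (adjusted p = 0.107 by edgeR) nor on the log2(FPKM + 0.1) scale (adjusted p = 0.279 by limma). The helicase gene DHX30 (-0.24, SE 0.04) and the mitochondrial ribosomal gene MRPL44 (-0.18, SE 0.04) fell, 2 calls that were lost on the log2(FPKM + 0.1) scale. ZFR and STRBP, which encode partners of ILF2, had estimates of 0.00032 and -0.00032, and 0.08 each under total-count scaling, where ZFR was called higher (adjusted p = 0.0396 by edgeR), as it was on the log2(FPKM + 0.1) scale (0.11). DGCR8, ZFR and STRBP were picked after their values were seen.

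In the microRNA list, 3 of 14 rose, 5 fell and 6 did not pass (median 0.05, and 0.13 under total-count scaling). LIN28B, which blocks let-7 maturation, fell from 8.38 to 6.37 CPM (-0.39, SE 0.09), and the export receptor gene XPO5 fell by 0.19 (SE 0.04), a call lost on the log2(FPKM + 0.1) scale (adjusted p = 0.229 by limma). Dicer's own gene DICER1 had 0.08 (SE 0.04) and was not called, but it was called higher under total-count scaling (0.16), on the log2(FPKM + 0.1) scale (0.19) and without knockdown replicate 1 (0.11). Among 9 tested sensors of double-stranded RNA outside the family, 3 rose and 3 fell (median 0.16, and 0.24 under total-count scaling). The adaptor gene MAVS fell from 125 to 109 CPM (-0.19, SE 0.03), also lost on the log2(FPKM + 0.1) scale, and ZNFX1, a helicase gene, rose from 33.5 to 37.5 CPM (0.16, SE 0.04). DDX58, the older symbol of the RIG-I gene, was higher at 0.23 (SE 0.07) and IFIH1, which encodes MDA5, was lower at -0.34 (SE 0.14, adjusted p = 0.0384 by edgeR). The IFIH1 call was lost with total-count scaling (adjusted p = 0.113), with DESeq2 (0.132), with no filter on low counts (0.0664) and on the log2(FPKM + 0.1) scale (0.238 by limma). Leaving out any of 4 libraries ended it too: control replicate 2 (0.0759), control replicate 3 (0.199), knockdown replicate 1 (0.0602) and knockdown replicate 2 (0.136). DICER1, DDX58 and IFIH1 were named after their values were seen, and IFIH1 is also on the interferon list, as are OAS1 and OAS3.

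Of 14 genes for eIF2, its other kinases, its exchange factor and its phosphatase, 3 rose, 8 fell and 3 did not pass (median -0.11, and -0.04 under total-count scaling). EIF2S1, which encodes the subunit that PKR phosphorylates, fell from 157 to 132 CPM (-0.25, SE 0.03), and EIF2S2, the beta subunit gene, fell from 214 to 182 CPM (-0.24, SE 0.02). DNAJC3, which encodes an inhibitor of PKR, rose from 42.8 to 52.6 CPM (0.30, SE 0.04). Among 17 Staufen partners and mRNA decay genes, 4 were higher, 6 were lower and 7 did not pass (median -0.02, but 0.06 under total-count scaling). SMG5, a decay factor gene, fell from 50.1 to 34.0 CPM (-0.56, SE 0.04), the core exon junction gene EIF4A3 fell by 0.19 (SE 0.02; not called on the log2(FPKM + 0.1) scale), and PNRC2, which links decay to decapping, rose by 0.27 (SE 0.04). The share called ran from 5 of 23 in the interferon list to 11 of 14 in the eIF2 list, beside 44.2% of all tested genes. With total-count scaling the calls were 4 higher and 2 lower among the proteins of the same fold, 5 and 2 in the microRNA list, 4 and 2 among the sensors, 5 and 6 in the eIF2 list, 4 and 2 in the interferon list and 7 and 4 among the Staufen partners. On the log2(FPKM + 0.1) scale they were, in the same order, 4 and 0, 5 and 1, 4 and 0, 5 and 4, 3 and 0, and 7 and 2.

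**Figure D5:**
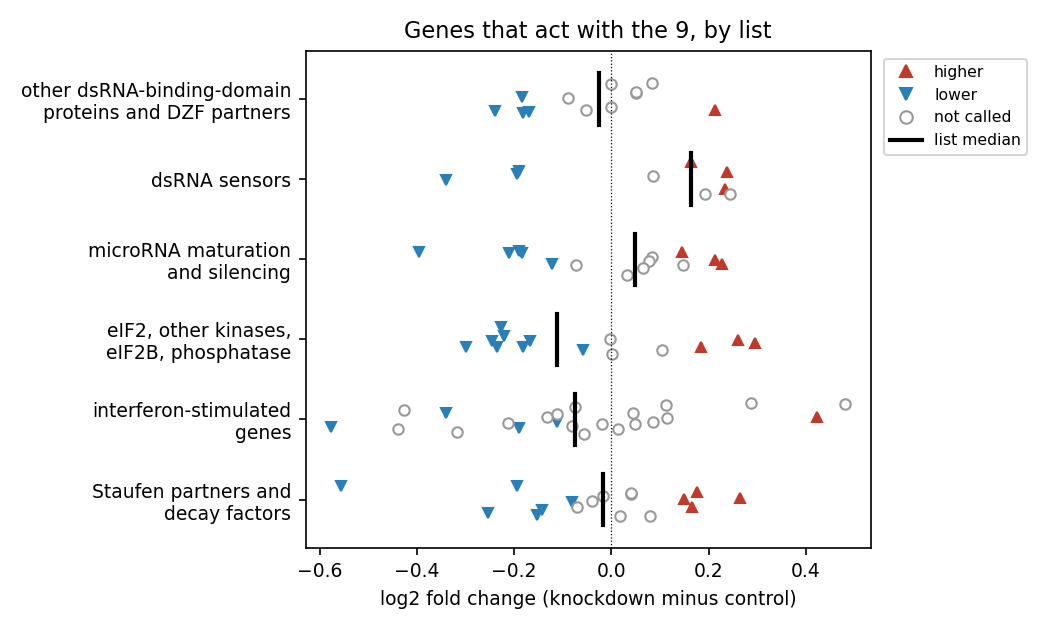
Log2 fold change, knockdown minus control, of every tested gene in 6 lists, with upward triangles for genes called higher, downward triangles for genes called lower, open circles for the rest and a bar at each list's median. With TMM scaling, calls go both ways in all 6 lists, and the medians run from -0.11 in the eIF2 list to 0.16 among the sensors.

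The genes whose log2 CPM followed STAU1 most closely over the 6 libraries, among 10122 whose mean log2 CPM reached 3, were UBE2D3 (r = 0.9999), CACYBP (0.9994) and DHODH (0.9992). They fell by 0.33, 0.41 and 0.52 on the log2 scale. For STAU2 they were AP1M2 (0.9994), ARHGAP35 (0.9977) and TMC7 (0.9976), which rose by 0.51, 0.32 and 0.58. The 6 points form 2 groups, so any gene with tight replicates and a shift scores high, and 1458 genes had r over 0.95 with STAU1 and 1033 with STAU2.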

How the data were processed

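The authors deposited whole-number read counts per gene and FPKM values with 2 decimals for 6 libraries of mRNA, sequenced as paired-end reads of 150 nt per the labels' protocols. The submitters' processing notes name HISAT2, DESeq2 and GRCh38, with no role or version. The counting tool, gene lengths and strand setting were not given in the sources used here. Counts were filtered with filterByExpr (minimum count 10), scaled by TMM and fitted by the quasi-likelihood method of edgeR 4.0.16 in R 4.3.3, using robust dispersions. P-values were Benjamini-Hochberg adjusted over 17089 genes, and the fit was tested on simulated data. There it recovered 48% of changes of 0.25 on the log2 scale, 76% of 0.5, 95.9% of 1 and 100% of 2, with 27 false calls. Changes of 0.25 were thus often missed in the simulation. It changed 50 genes of each size, drawn from genes of all levels, whereas 7560 genes were called in the data. The recovered shares may therefore not hold for the 9 members. Each SE is the absolute log2 fold change divided by the root of F. Replicate pairs differed by more than sampling noise (chi-square per degree of freedom 1.78 to 2.88). Named genes were the 9 members, the 3 genes with the smallest adjusted p of each pathway list other than members, and the 3 genes most correlated with STAU1 and with STAU2, and some results under the rule are not reported here. The members and lists were chosen with earlier results of these data known. Alternatives were RLE, upper-quartile and total-count scaling, other filters, DESeq2 1.42.0 (332 adjusted p-values NA), voom and trend fits of limma 3.58.1 (the latter on FPKM with a pseudocount of 1 or 0.1 before log2), the replicate block and each library left out. Gene models are from GENCODE 29 and promoter windows from RefSeq.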

Additional observations from a re-analysis of the deposited data

How the results depend on the processing

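The calls of STAU1, STAU2, ILF2 and DHX9 and the lack of a call for ADARB1, PRKRA and TARBP2 were kept in every alternative run. With TMM 3801 genes were higher and 3759 lower. Lower genes numbered 2407 under total-count scaling, 1552 on the log2(FPKM + 1) scale and 1554 on the log2(FPKM + 0.1) scale, and lower members 3 in each, against 5. The share of calls that were higher went from 50.3% to 69.5%, 77.3% and 77.2%. In the same order, ADAR had log2 fold changes of -0.0143, 0.0167 and 0.0181, EIF2AK2 -0.0342, -0.00065 and -0.00074, and TARBP2 0.0743, 0.0922 and 0.106. TARBP2 had 0.0019 with the filter of 1 CPM in 3 libraries. Leaving out 1 library gave -0.105 to -0.0644 for ADAR, -0.0175 to 0.0284 for PRKRA and -0.0303 to 0.0167 for TARBP2. With total-count scaling list medians moved to 0.0509 (proteins of the same fold), 0.241 (sensors), 0.126 (microRNA), -0.0351 (eIF2), 0.0600 (Staufen partners) and -0.0316 (epithelial markers). Per kilobase of summed exons PRKRA ranked 5, EIF2AK2 6 and TARBP2 7 in controls, and PRKRA 4, TARBP2 5, EIF2AK2 6 and STAU2 7 in knockdown libraries. The cause of these shifts was not tested.

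The labels give same-numbered libraries no link beyond the number. Deviations of the pairs numbered 1, 2 and 3 correlated at 0.0447, 0.0237 and 0.108. Controls 1 and 3 correlated best with the knockdown library of their own number, whereas control 2 correlated best with knockdown 1 (0.0583). All pairings ran from -0.0966 to 0.108, and whether the numbers mark a block was not tested. With the replicate block 3821 genes were higher and 3844 lower, STAU2 had 0.23 (adjusted p = 9.0e-06 by edgeR), and no call of a member changed. ADARB1 had the fewest counts of the 9, with 69 to 99 a library and an interval of -0.08 to 0.53.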
